A study of Mus musculus with 6 samples.

Results

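The genes described here encode the proteins of the 2 ribosomes of the liver cell, the cytosolic ribosome and the mitochondrial ribosome. They were taken from the deposited table by name, as Rpl, Rps, Rplp0 to Rplp2 and Rpsa for the cytosolic ribosome and as Mrpl and Mrps for the mitochondrial one, without names marked as pseudogenes and with at least 100 counts summed over the libraries. This gave 152 genes of 34745 in the table, 75 cytosolic (46 of the large and 29 of the small subunit) and 77 mitochondrial (50 of the large and 27 of the small subunit). None of the 152 was lost to the low-count filter. Of 81 cytosolic names 6 fell under the minimum, namely Rpl23a, Rps23, Rps27, Rps29 and the tissue-restricted Rpl10l and Rpl39l, and of 77 mitochondrial names none did.

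Liver RNA was sequenced from mice fasted for 12 h and injected i.p. with acetaminophen (APAP, 300 mg/kg, 12 h before the liver was taken) or with saline. Every record gives the genotype WT, and the Methods name male C57BL/6J mice of 8 to 10 weeks. APAP is the analgesic whose overdose kills hepatocytes around the central vein. Of the 6 samples 5 libraries were analysed, APAP replicates 1 and 3 and the saline libraries named WT1, WT2 and WT3, with 13378445 to 15976339 counts each. Nothing says which saline mouse a WT library came from, so p-values measure the spread between these libraries, and 2 against 3 libraries are too few for an exact permutation test of a single value to pass 0.05, so such values are given without a test.

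The libraries differed in more than treatment. Xist, the RNA that silences an X chromosome, stood at 0.764 and 1.73 counts per 1000000 (CPM) in the APAP libraries and at 289.6 to 914 CPM in the saline libraries, while the Y-linked gene Ddx3y had 1344 and 998 counts in APAP and 0, 0 and 1 in saline. This goes against the Methods, so the treatment and the sex-linked difference cannot be told apart in any value below. Hepatocyte markers were present in every library, with a sum over 10 genes of 78414 and 126593 CPM in APAP and 134678 to 185159 CPM in saline. Of these 10 genes 9 had a log2 fold change below 0, with a median of −0.80 over the list. The gene Ass1 was called lower, where 3.53% of all genes tested were. The sum over 10 neutrophil markers was 80.5 and 125 CPM in APAP and 4.72 to 8.89 CPM in saline. Of 9 tested genes 8 were called higher, where 3.70% of all genes tested were. Camp and Ly6g were at 0 counts in all saline libraries. The sum over 6 bile duct markers was 347 and 356 CPM in APAP and 47.1 to 52.3 CPM in saline. The highest gene of this list averaged 142 CPM over the 5 libraries and so made up most of the sum. Of 5 tested genes 2 (Sox9 and Spp1) were called higher, against the same 3.70%. Among other marker lists, 2 of 10 monocyte or macrophage and 1 of 8 stellate genes were called higher, against the same 3.70%. The monocyte or macrophage sum was 148 and 241 CPM in APAP and 137 to 187 CPM in saline, with 7 of 10 genes above 0. The stellate sum was 374 and 519 CPM against 512 to 606 CPM, with 6 of 8 genes below 0. Both sums overlapped between the groups. No Kupffer cell, endothelial, lymphocyte or erythroid marker was called. The 12 skeletal muscle genes read (Acta1, Ckm, Ttn and others, a list written after the values of Rpl3l were seen) together had 28 counts in APAP replicate 1 and 22 in WT1, but 11787 in APAP replicate 3, 18110 in WT2 and 32716 in WT3. Muscle transcripts were thus found in libraries of both groups. In bulk tissue, fewer cells of a type and less RNA per cell cannot be told apart.

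A ribosome reads messenger RNA with its small subunit and joins amino acids with its large subunit. The cytosolic ribosome makes nearly all proteins of the cell, and many of its mRNAs begin with a C and a run of pyrimidines (the 5′ terminal oligopyrimidine, or TOP, motif), through which mTORC1 and Larp1 set their translation. The mitochondrial ribosome makes only the few proteins encoded in mitochondrial DNA, all of them subunits of the respiratory chain and the ATP synthase, and its proteins are encoded in the nucleus and imported.

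Messages of the cytosolic ribosome took a larger part of the RNA in APAP livers. Summed over the 75 genes they were 1.02% and 0.815% of all counts in APAP and 0.669%, 0.617% and 0.560% in saline. Both APAP libraries lay above all 3 saline libraries. The 77 mitochondrial genes together were 0.231% and 0.196% of counts in APAP and 0.174%, 0.186% and 0.164% in saline. The groups again did not overlap, but the difference was smaller. With library size alone as the scale, 43.3% of all genes tested were apart upward. The median log2 fold change on that scale was 0.42 over all genes, 0.63 over the cytosolic and 0.28 over the mitochondrial genes. The ratio of the sums, which needs no scaling between libraries, was 4.42 and 4.16 in APAP (mean 4.29 ± 0.186, SD, n = 2) and 3.85, 3.31 and 3.42 in saline (3.53 ± 0.283, SD, n = 3). On the log2 scale this was a difference of 0.28. In the libraries without muscle transcripts the log2 difference was 0.20 (1 against 1 library), and in those with them it was 0.30 (1 against 2). The ratio of large to small subunit counts was 1.25 and 1.25 in APAP and 1.17, 1.27 and 1.30 in saline for the cytosolic ribosome, and the groups overlapped.

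**Figure D1:**
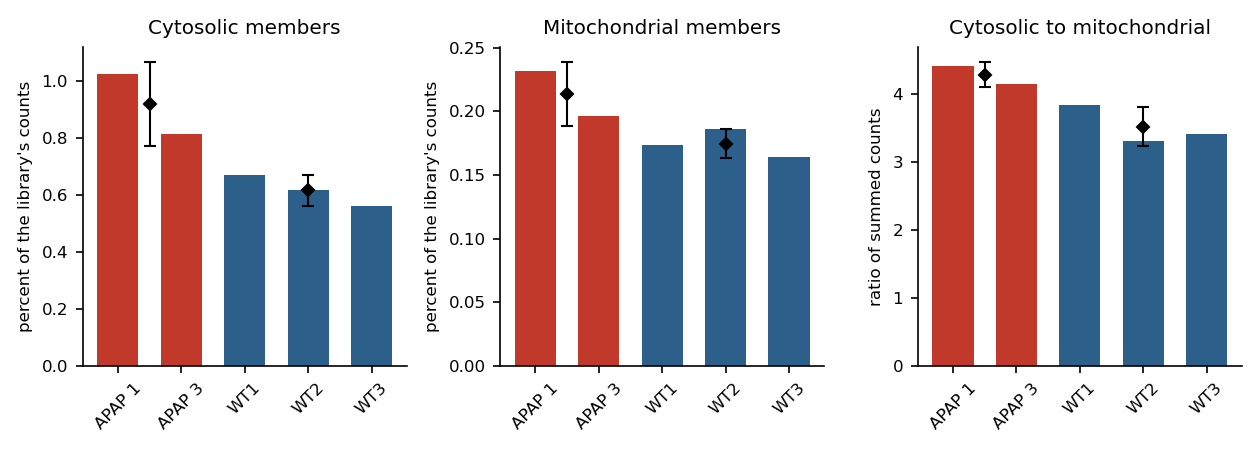
Bars give, for each library, the summed counts of the 75 cytosolic and of the 77 mitochondrial ribosomal protein genes as a percent of all counts, and the ratio of the sums. Red bars are APAP and blue bars saline libraries, and diamonds with whiskers are group means ± SD (n = 2 and n = 3). The ratio was 4.42 and 4.16 in APAP, above the 3.31 to 3.85 of the saline libraries.

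The size of this difference depended on the scaling between libraries. TMM normalization, which assumes that most genes do not differ, raised the effective size of the APAP libraries (factors 1.27 and 1.09) and lowered that of WT1 (0.783). On that scale the cytosolic sum was 8038 and 7477 CPM in APAP and 8547, 6304 and 5981 CPM in saline. WT1 was then the highest of the 5 libraries and the groups overlapped. All fold changes below are log2 fold changes of APAP against saline on the TMM scale from edgeR's quasi-likelihood test, with p-values adjusted by Benjamini-Hochberg over the 13734 genes tested.

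Gene by gene, 61 of the 75 cytosolic genes had a fitted fold change above 0 and 14 below, against 52.0% above among all genes tested. Their median was 0.21, beside 0.03 over all genes tested. Of the 77 mitochondrial genes 29 were above 0 and 48 below, with a median of −0.12. With library size alone as the scale the medians were 0.63 and 0.28, beside 0.42 over all genes, so that the cytosolic median stayed above and the mitochondrial median below that of all genes. Leaving out WT1 raised the cytosolic median to 0.39 and the mitochondrial one to 0.01, while leaving out WT3 lowered the cytosolic median to 0.10. Cytosolic large and small subunit genes had medians of 0.22 and 0.18. Mitochondrial large subunit genes had a median of −0.03, with 23 of 50 above 0, and mitochondrial small subunit genes one of −0.22, with 6 of 27 above 0.

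Most members differed little. In 58 of 75 cytosolic and 69 of 77 mitochondrial genes the fitted difference was under 1.5-fold in either direction, against 60.8% of all genes tested. An adjusted p under 0.05 was reached by 2 cytosolic genes, both higher (2 of 75, where 3.70% of all genes tested were called higher), by no cytosolic gene that was lower (3.53% of all genes), and by no mitochondrial gene (7.23% in either direction). At the study's threshold (1.5-fold or more, p under 0.05 before adjustment), 10 cytosolic genes were higher and 2 lower, and 3 mitochondrial genes were higher and 4 lower, where the threshold was passed by 12.3% of all genes tested in the upward and 11.2% in the downward direction. These shares are near the background or under it. The groups did not overlap in 23 cytosolic genes that were higher and 3 that were lower, and in 9 and 17 mitochondrial genes, against 24.0% and 20.1% of all genes.

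The choice of scale moved these counts for the cytosolic genes. With library size alone, 6 cytosolic genes (Rpl10a, Rpl12, Rplp2, Rps12, Rps15a and Rps6) and 3 mitochondrial genes (Mrpl54, Mrps18b and Mrps28) had an adjusted p under 0.05, all of them higher, where 7.59% of all genes were called higher and 2.16% lower. At the study's threshold 41 cytosolic and 7 mitochondrial genes were then higher and none lower, against 24.3% and 5.32% of all genes, and the groups were apart upward in 66 cytosolic and 36 mitochondrial genes, against 43.3% of all genes, and downward in 1 and 2, against 9.19%. Scaled to the summed cytosolic genes, a choice made after seeing the data, 2 cytosolic genes were higher and 2 lower at the study's threshold and 9 mitochondrial genes were lower, against 6.81% of all genes higher and 13.7% lower.

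**Figure D2:**
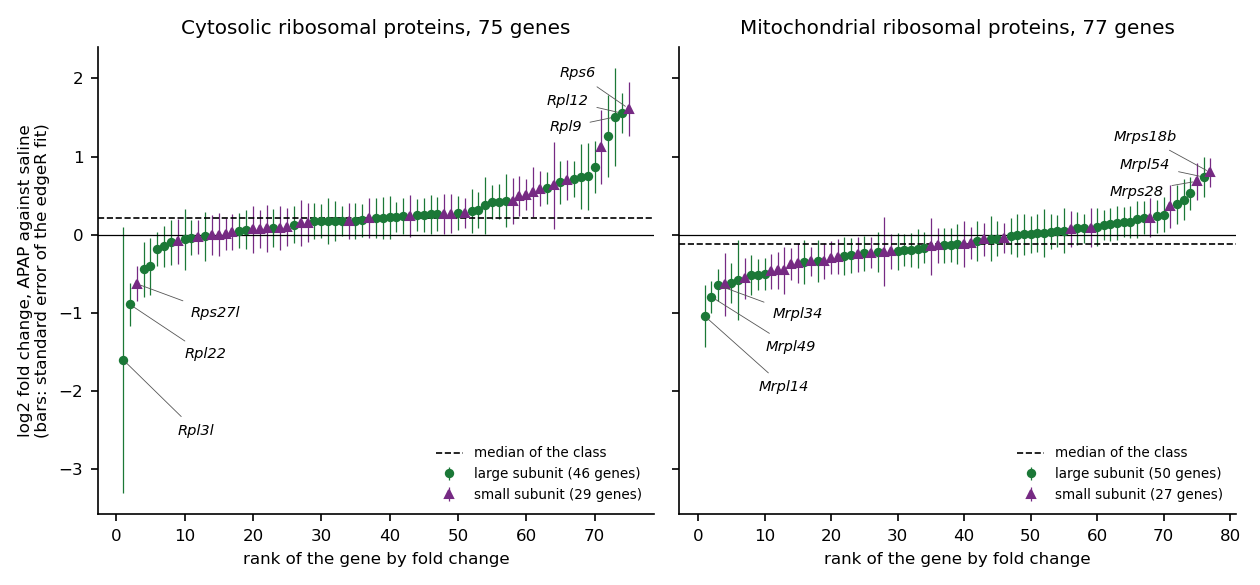
Each point is the log2 fold change of 1 gene (APAP against saline, edgeR fit) with its standard error, ranked within the cytosolic (left, 75 genes) and mitochondrial (right, 77 genes) ribosome. Circles are large and triangles small subunit genes, and the dashed line is the class median (0.21 and −0.12). Rps6 and Rpl12 lie at the upper end and Rpl3l, with the widest error, at the lower end.

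Rpl12 and Rps6 were the cytosolic genes with an adjusted p under 0.05, both higher in APAP. Rpl12, a protein at the base of the stalk where elongation factors bind (ENSMUSG00000038900, chr2:32961559-32965345 of GRCm38, plus strand), was at 15.9 and 14.5 CPM in APAP and at 6.01, 4.45 and 5.08 CPM in saline. Every APAP value was above every saline value, with a log2 fold change of 1.55 ± 0.25 (± is the standard error here and below, adjusted p = 0.0189). Rps6, the small subunit protein that S6 kinase phosphorylates below mTORC1 (ENSMUSG00000028495, chr4:86854660-86857412, minus strand), was at 5.64 and 6.61 CPM in APAP and at 2.42, 1.59 and 2.004 CPM in saline. Its log2 fold change was 1.61 ± 0.35 (adjusted p = 0.0413). Both calls rest on few libraries. The adjusted p of Rps6 was between 0.0656 and 0.171 when any 1 of the 5 libraries was left out, and that of Rpl12 was 0.124 without APAP replicate 1, 0.0683 without APAP replicate 3 and 0.0898 without WT2. With a term for the libraries that hold muscle transcripts, Rpl12 kept its call and Rps6 had an adjusted p of 0.0668.

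Rpl12 and Rps6 were also among the members with few counts, 715 and 284 over all libraries, and their sequences recur elsewhere in the genome. Ribosomal protein mRNAs have left many processed pseudogenes, copies without introns, in mammalian genomes, and a read that fits both the gene and a copy can be given to either or dropped. For each member the transcript was broken into all its 100-base words and each word was looked for in the transcripts of other genes (GENCODE M21). In the cytosolic members the median share of words found elsewhere was 31.0%, and 24 of 74 genes with a value had more than 50% of their words elsewhere. In the mitochondrial members the median was 0%, and 1 of 77 genes (Mrpl23) had more than 50%. The share was 46.8% for Rpl12 and 83.6% for Rps6.

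Levels of the cytosolic genes were lower where this share was higher. The 30 genes with under 25% of words elsewhere had a median of 99.3 CPM per kb of transcript. The median was 59.5 CPM per kb in the 20 genes with 25 to 50% and 56.2 in the 13 genes with 50 to 75%. In the 11 genes with over 75% it was 8.997 CPM per kb. The median log2 fold changes, in the same order, were 0.17, 0.21, 0.18 and 0.70, so only the last set stood out. Across the 74 genes the share went with a lower level per kb (Pearson r = −0.39, Spearman rho = −0.39) and a higher log2 fold change (r = 0.48, rho = 0.39). These correlations are across genes that share libraries and sequence, and genes are not independent replicates. Among the 14 cytosolic members under a mean of 10 CPM the median log2 fold change was 0.75, and among the 61 at or above it the median was 0.18.

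**Figure D3:**
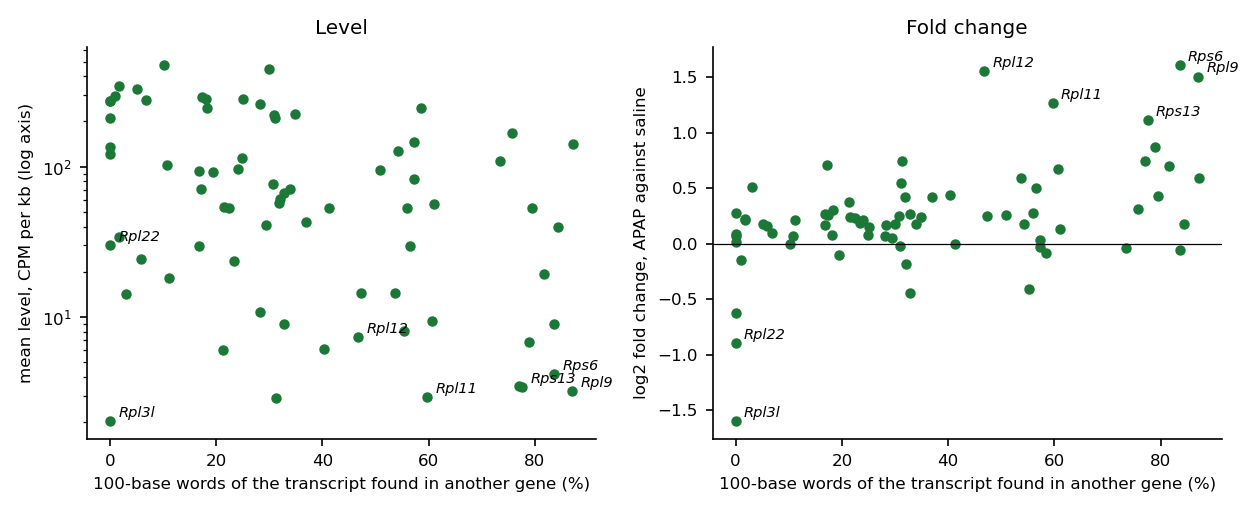
For 74 cytosolic genes, the share of 100-base transcript words that occur in another gene is plotted against the mean level in CPM per kb (left, log axis) and against the log2 fold change (right). Rps6, Rpl9 and Rps13 have shares of 83.6%, 87.0% and 77.6%, low levels and high fold changes, while Rpl22 and Rpl3l share no word with another gene.

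Rows of the table that hold such copies had far more counts than some of their parent genes. Gm10275, a transcribed processed pseudogene of Rpl12, had 12436 counts where Rpl12 had 715. Rpl9-ps6 had 6893 counts and Rpl9 185, Gm10036 had 4813 and Rpl11 192, and Rpl27-ps3 had 6474 and Rpl27 438. Rps27 and Rpl23a, left out above for having 87 and 65 counts, had copies Rps27rt and Rpl23a-ps3 with 8737 and 6663 counts. The counts of 40 such rows were therefore added to those of their 29 parent genes, an alternative chosen after seeing the data. For Rpl12 this gave 4534 and 3824 counts in APAP and 1757, 1567 and 1469 in saline. The groups stayed apart, but the log2 fold change was 1.07 ± 0.28 and the adjusted p 0.0659, so the call was lost. For Rpl9 the log2 fold change went from 1.51 to 0.36, for Rpl11 from 1.27 to 0.20 and for Rpl27 from 0.67 to 0.20. The median over the 75 cytosolic genes was 0.19 with the copies added and 0.21 without, and 61 genes were above 0 either way. Only the genes with copies among the rows could move, and some of these copies had few counts. The comparison therefore cannot show how far copies affect the class. The copy closest to Rps6, Rps6-ps4, is no row of the table, so its counts could not be added and the count of Rps6 is uncertain. The closest copies of Rpl3, Rpl10a, Rpl13, Rpl17, Rpl36a, Rps13 and others are no rows either.

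**Figure D4:**
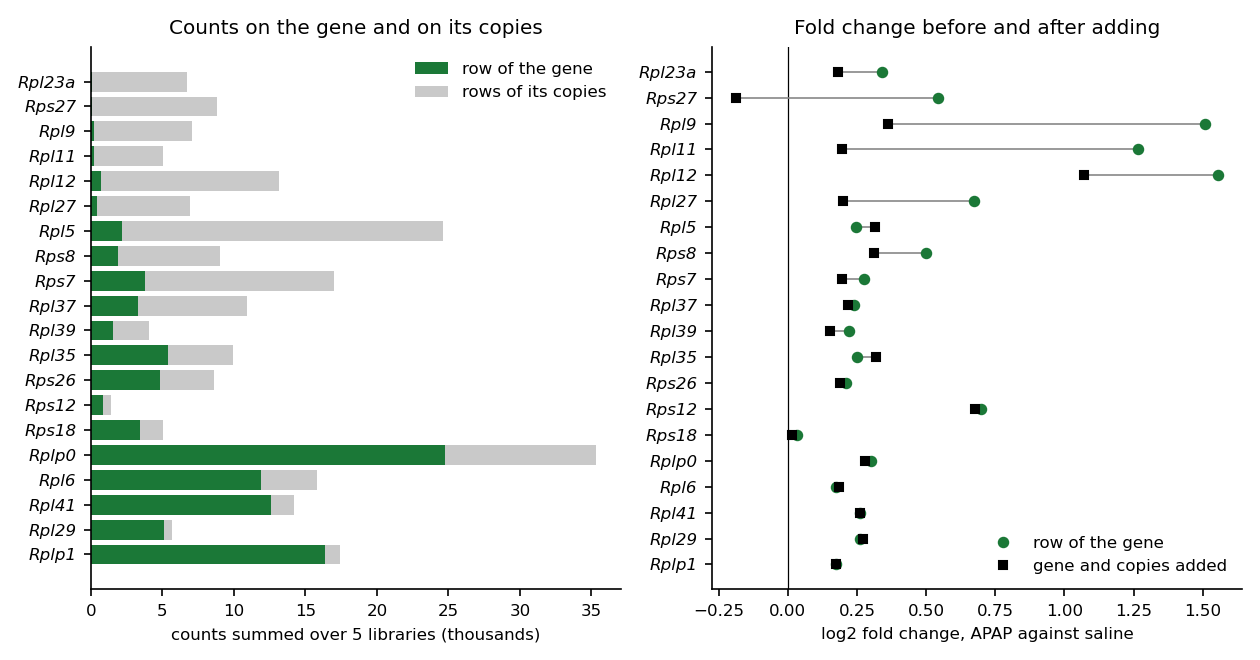
For the 20 genes with at least 500 counts on rows of copies, the left plot gives the counts summed over 5 libraries on the gene (green) and on its copies (gray), and the right plot the log2 fold change of APAP against saline before (circle) and after (square) the copies were added. Rpl9, Rpl11 and Rpl27 move from 1.51, 1.27 and 0.67 to 0.36, 0.20 and 0.20, and Rpl12 from 1.55 to 1.07.

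Among cytosolic genes that share no 100-base word with another gene, Rpl22 had the lowest fold change after Rpl3l. Rpl22, a large subunit protein near the exit of the peptide tunnel that cells can lack (chr4:152325742-152334071 of GRCm38, plus strand), was at 43.9 and 38.01 CPM in APAP and at 87.8, 86.4 and 53.8 CPM in saline. The groups did not overlap, the log2 fold change was −0.89 ± 0.28, and the adjusted p was 0.104 by edgeR and 0.0277 by DESeq2. Its paralog Rpl22l1, which can take its place in the ribosome and whose level Rpl22 is known to hold down, was at 21.3 and 16.9 CPM in APAP and 10.9, 9.37 and 10.1 CPM in saline (log2 fold change 0.92 ± 0.22, adjusted p = 0.0543). Within each library the ratio of Rpl22 to Rpl22l1 counts was 2.06 and 2.24 in APAP and 8.03, 9.23 and 5.33 in saline. The mean ratio was thus 2.15 ± 0.128 (SD, n = 2) against 7.53 ± 1.996 (SD, n = 3), with no overlap. The Rpl22 to Rpl22l1 ratio was chosen after earlier results of these data were known.

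Rps27l, a small subunit paralog known as a p53 target, was the other cytosolic gene under the threshold of the study. It was at 76.5 and 83.3 CPM in APAP and at 143, 120 and 107 CPM in saline, apart in all libraries, with a log2 fold change of −0.63 ± 0.23 (adjusted p = 0.147). Its partner by name, Rps27, had 87 counts, while Rps27rt, a gene of nearly the same sequence, was at 117 and 103 CPM in APAP and 153, 112 and 113 CPM in saline.

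The remaining paralogs had levels that varied within groups. Rpl3l, which replaces Rpl3 in skeletal and heart muscle, had 0 and 41 counts in APAP and 0, 63 and 108 counts in saline. The libraries at 0 were APAP replicate 1 and WT1, the same libraries that held 28 and 22 counts of the 12 muscle genes. A count of 0 allows up to 0.176 CPM in APAP replicate 1 and 0.269 CPM in WT1, for counting error alone. Rps4l, a copy of Rps4x without introns, was at 20.4 and 11.9 CPM in APAP and 18.9, 7.64 and 4.94 CPM in saline, and the groups overlapped. Rpl10l had no count in any library and Rpl39l had 1.

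**Figure D5:**
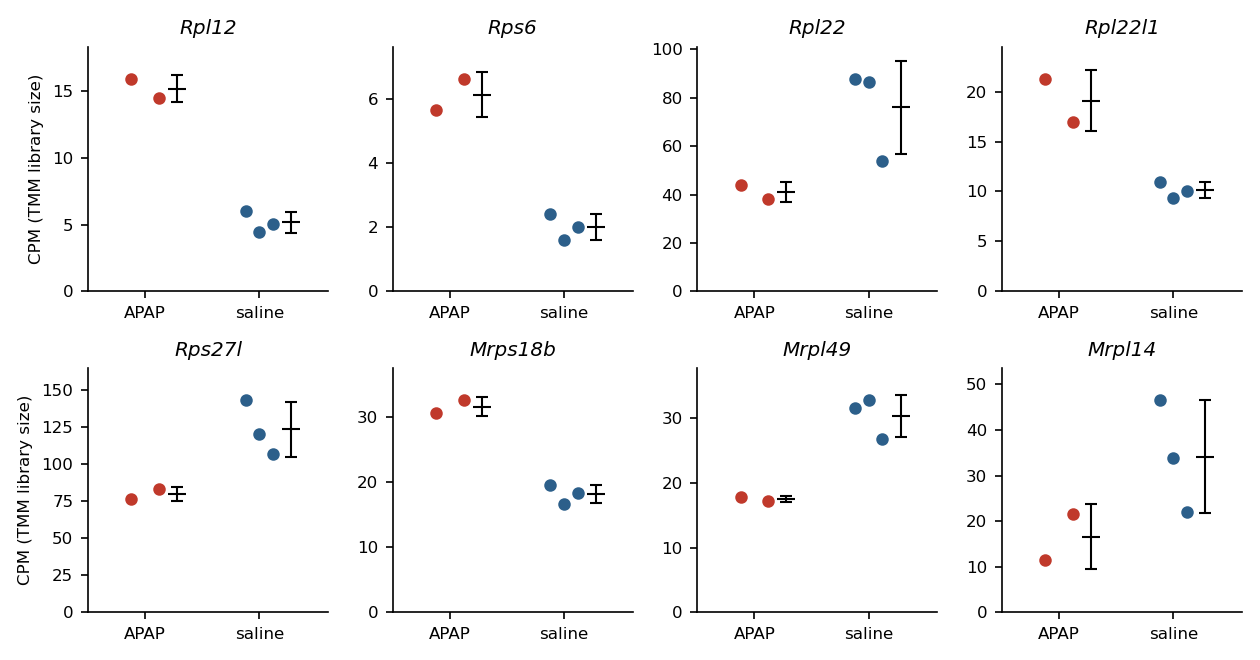
Points are single libraries (APAP red, n = 2, and saline blue, n = 3) and the bars beside them group means ± SD, in CPM on TMM library sizes with axes from 0. The 8 genes were chosen with their values known, and the groups are apart in each. Rpl12, Rps6, Rpl22l1 and Mrps18b are higher and Rpl22, Rps27l, Mrpl49 and Mrpl14 lower in APAP. Over all genes tested the groups were apart upward in 24.0% and downward in 20.1%.

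The stalk that recruits elongation factors is built on Rplp0 with Rplp1 and Rplp2. Rplp2 was at 99.9 and 79.1 CPM in APAP and 65.8, 50.2 and 48.2 CPM in saline (log2 fold change 0.71 ± 0.23, adjusted p = 0.119). Rplp0 was at 387 and 366 CPM against 397, 258 and 262 CPM, and Rplp1 at 239.8 and 237 CPM against 281, 194 and 159 CPM. Both overlapped, their log2 fold changes being 0.30 ± 0.28 and 0.18 ± 0.29.

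Rpl5 and Rpl11 bind ribosomal RNA together and, when free, restrain Mdm2. Rpl5 was at 30.6 and 34.9 CPM in APAP and 30.7, 24.0 and 27.99 CPM in saline, and the groups overlapped. Rpl11 was at 3.35 and 4.20 CPM against 0.717, 2.26 and 1.67 CPM, but with its copy added it overlapped as well, at 71.7 and 74.4 CPM against 73.2, 64.2 and 53.9 CPM.

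Rpl10a, which forms the stalk beside the site where spent tRNA leaves, was at 139 and 121 CPM in APAP and 94.5, 79.9 and 84.0 CPM in saline (log2 fold change 0.60 ± 0.21, adjusted p = 0.134). Of its 100-base words 87.1% occur elsewhere. Rpl4, which lines the tunnel and shares 5.14% of its words, was at 543 and 545 CPM in APAP and 525, 468 and 451 CPM in saline, a small step without overlap (log2 fold change 0.18 ± 0.23). Of the 9 tunnel genes tested, Rpl23a with its low counts included, 7 were above 0 and none had an adjusted p under 0.05. Rpl3, Rpl8 and Rpl10, which reach toward the catalytic center, had log2 fold changes of 0.43 ± 0.34, 0.22 ± 0.27 and 0.18 ± 0.19. Rpl4, Rpl8, Rps15 and Rplp1 had the highest levels per length, between 313 and 478 CPM per kb.

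In the small subunit, Rps15a, which shares 3.03% of its words, was at 85.7 and 94.6 CPM in APAP and 69.6, 61.6 and 58.3 CPM in saline (log2 fold change 0.51 ± 0.20, adjusted p = 0.168). Rpsa, also known as the laminin receptor precursor, was at 520 and 493 CPM against 477, 315 and 249.6 CPM, apart but with a wide spread in saline. Rps3 and Rps15, at the mRNA entry and the decoding site, had log2 fold changes of 0.07 and −0.00. Rps27a, made as a fusion with ubiquitin, had a log2 fold change of 0.59 ± 0.22. Of 11 tested genes that are mutated in Diamond-Blackfan anemia, among them Rps19 (0.26 ± 0.26), 9 were above 0 and 0 were called by edgeR at an adjusted p under 0.05. The 4 X-linked members Rpl10, Rpl36a, Rpl39 and Rps4x had log2 fold changes of 0.18, −0.06, 0.22 and 0.24, in a comparison where Xist separated the groups. Subunits that the names used here miss had small differences too, with Gnb2l1 (Rack1) at 0.28, Rps3a1 at 0.18 and Fau at −0.03.

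The letters at the annotated start sites differed between the classes. RefSeq promoters (GRCm38.p6, 250 bases before and 50 from each start) were found for 56 of the 75 cytosolic and 68 of the 77 mitochondrial genes. A C at the start followed by 4 pyrimidines, the letters of a TOP motif, began 12 of 56 cytosolic genes (21.4%) and 0 of 68 mitochondrial genes, where 3.01% of 27025 genes in the table had it. With the letters allowed within 5 bases of the start the shares were closer, with 26 of 56 cytosolic genes (46.4%) and 17 of 68 mitochondrial genes against 21.2% of all genes, and Rpl12 and Rps27l then had them. The windows below run from 10 bases before to 20 bases from the annotated start, 5′ to 3′ on the coding strand, with the pyrimidine run from a starting C in capitals. Rps6, Rplp2, Rps10, Rpl15 and Rpl35 show the run, while the cytosolic genes Rpl12, Rpl22 and Rps27l and the mitochondrial genes Mrps18b and Mrpl49, all described here with their values, do not have the motif at the first base of these starts.
Rps6, chr4:86857348-86857377, minus strand: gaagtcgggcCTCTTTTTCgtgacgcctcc
Rplp2, chr7:141447641-141447670, plus strand: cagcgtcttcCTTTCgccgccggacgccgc
Rps10, chr17:27635225-27635254, minus strand: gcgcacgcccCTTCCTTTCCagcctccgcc
Rpl15, chr14:18270967-18270996, minus strand: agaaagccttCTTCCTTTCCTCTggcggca
Rpl35, chr2:39005112-39005141, minus strand: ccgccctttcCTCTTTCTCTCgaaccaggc
Rpl12, chr2:32961702-32961731, plus strand: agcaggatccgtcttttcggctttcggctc
Rpl22 (1 of 2 annotated starts), chr4:152325716-152325745, plus strand: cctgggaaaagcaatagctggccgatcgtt
Rps27l (1 of 2 annotated starts), chr9:66946076-66946105, plus strand: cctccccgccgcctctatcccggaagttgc
Mrps18b, chr17:35916421-35916450, minus strand: cggggcgtgtCCTTggcccaccctagtgcg
Mrpl49, chr19:6057736-6057765, minus strand: cgcatatgacactcagttgaggcgccaaga

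An annotated start can lie some bases from the start used in liver, so a missing match says only that these letters are not at this base. The 12 genes with the letters had a median log2 fold change of 0.42, with 11 above 0, and the 44 matched genes without them one of 0.21, with 34 above 0. On either strand of the promoters, CCGGAAG, the core that ETS factors such as GABP bind, was found in 42.9% of cytosolic and 36.8% of mitochondrial genes against 9.93% of all genes. The NRF1 motif was found in 8.93% and 19.1% against 5.19%, and AAGATGGCG, the YY1 motif, in 3.57% and 11.8% against 1.64%. TATAAA was found in 10.7% and 7.35% against 15.7%. These shares describe letters, not bound sites.

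In the mitochondrial ribosome the highest fold change belonged to Mrps18b, 1 of 3 mitochondrial proteins related to bacterial S18. Mrps18b (chr17:35910379-35916389 of GRCm38, minus strand) was at 30.6 and 32.6 CPM in APAP and 19.5, 16.7 and 18.4 CPM in saline. The groups were well apart, with a log2 fold change of 0.80 ± 0.19, an adjusted p of 0.0533 by edgeR's quasi-likelihood test and one of 0.0184 by DESeq2. Of its exon bases 30.5% overlap Gm16279, and since no strand setting is given, reads of the overlapping part cannot be told apart. Its relatives Mrps18a and Mrps18c were at 21.6 and 18.9 CPM against 27.9, 23.7 and 20.04 CPM, and at 16.9 and 17.3 CPM against 25.7, 20.4 and 20.3 CPM. Their log2 fold changes were −0.24 ± 0.22 and −0.37 ± 0.21.

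Mrpl54 and Mrps28 were the other mitochondrial genes above the study's threshold. Mrpl54 was at 17.9 and 14.8 CPM in APAP and 12.2, 8.90 and 8.42 CPM in saline (log2 fold change 0.74 ± 0.25, adjusted p = 0.133). Mrps28 was at 17.2 and 20.1 CPM against 14.1, 10.3 and 10.5 CPM (0.68 ± 0.24, adjusted p = 0.133). Both were apart in all libraries.

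Among the lower genes, Mrpl49 (chr19:6053630-6057751, minus strand) was at 17.8 and 17.2 CPM in APAP and 31.5, 32.7 and 26.7 CPM in saline. Its spread was small in both groups, with a log2 fold change of −0.79 ± 0.20 (adjusted p = 0.0637 by edgeR and 0.00882 by DESeq2). Mrpl34 was at 16.3 and 17.3 CPM against 28.1, 23.1 and 27.8 CPM (−0.65 ± 0.20, adjusted p = 0.107). Mrpl14, whose bacterial relative lies where the subunits meet, had the lowest fold change at −1.04 ± 0.40 but a wide spread, with 11.6 and 21.6 CPM in APAP and 46.6, 33.9 and 22.0 CPM in saline. Mrpl28, also under the threshold of the study, had a log2 fold change of −0.61 ± 0.26.

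The 46 mitochondrial genes with a bacterial homolog and the 31 without one had medians of −0.12 and −0.14. Mrpl12, a stalk protein with the highest level per length in saline at 73.4 CPM per kb, was at 89.5 and 76.5 CPM in APAP and 122, 84.9 and 83.3 CPM in saline, and the groups overlapped. The decoding site genes Mrps12, Mrps7 and Mrps11 had log2 fold changes of −0.36, −0.25 and −0.28. Of 6 mitochondrial subunits under other names, Chchd1 was at 14.9 and 16.01 CPM against 27.9, 23.1 and 19.98 CPM (−0.61 ± 0.22, adjusted p = 0.151), and Dap3, Ptcd3, Aurkaip1, Gadd45gip1 and Ict1 lay between −0.28 and 0.23. Of 15 mitochondrial translation factors 12 were below 0, where 48.0% of all genes tested were, and 0 were called by edgeR at an adjusted p under 0.05. With library size alone as the scale, 12 of the 15 were above 0, as were 10168 of all 13734 genes tested. The median of the 15 was then 0.21, beside 0.42 over all genes. Tufm, an elongation factor of this list, was at 29.3 and 29.0 CPM in APAP and 60.4, 42.6 and 35.0 CPM in saline (−0.66 ± 0.27 on the TMM scale, adjusted p = 0.193). None of the 23 assembly factors of the mitochondrial ribosome was called either, and their median was 0.01.

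Around the cytosolic ribosome, 2 of 41 initiation factors were called higher and 0 lower, near the 3.70% and 3.53% of all genes tested. Eif6, which keeps new large subunits from joining small ones too early, rose from 45.5, 27.5 and 39.6 CPM in saline to 113 and 93.3 CPM in APAP (log2 fold change 1.46 ± 0.26, adjusted p = 0.0253). Eif4a1, the helicase that unwinds the mRNA 5′ end, rose from 45.1, 51.6 and 59.6 to 109.99 and 106 CPM (1.05 ± 0.21, adjusted p = 0.0337). Of 12 elongation and release factors and of 19 other TOP mRNAs 0 were called by edgeR, with medians of 0.29 and −0.03. Eef1a1 and Eef2, the abundant elongation factors whose mRNAs carry a TOP motif, had log2 fold changes of −0.20 ± 0.36 and −0.53 ± 0.32.

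Among 24 genes of mTORC1 and of TOP mRNA control, 1 was called higher and 1 lower, again near the 3.70% and 3.53% of all genes tested. Eif4ebp1 restrains the cap-binding protein Eif4e and is phosphorylated by mTORC1. It rose to 66.5 and 51.1 CPM in APAP from 30.6, 19.995 and 23.5 CPM in saline (1.25 ± 0.25, adjusted p = 0.0338). Deptor, an inhibitor within mTORC1, fell to 64.5 and 71.2 CPM from 199, 198 and 149.7 CPM (−1.43 ± 0.24, adjusted p = 0.0218). Larp1, which binds the TOP motif, was at 134 and 151 CPM against 242, 232 and 204 CPM (−0.66 ± 0.22, adjusted p = 0.126). Of 14 genes of ribosome quality control 0 were called by edgeR. The part of the hepatocyte, lymphocyte, neutrophil, bile duct, muscle and sex-linked differences in these values was not tested.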

How the data were processed

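Bulk RNA-Seq was done on mouse liver. The authors deposited raw counts, which their Methods credit to HISAT2, with no scaling between libraries. The builds GRCm38 and mm10 are named in the submitters' processing notes, and the annotation, strand setting and program versions are not given in the sources used here. The deposited FPKM columns (5) were not used, because counts were at hand. APAP replicate 2 was not analysed here.

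The analysis used edgeR 4.0.16 under R 4.3.3. The filterByExpr filter (at least 10 counts, 15 in total) was followed by TMM scaling and the quasi-likelihood test (glmQLFit, glmQLFTest) with Benjamini-Hochberg adjustment over 13734 genes. The script was tested on simulated data. Alternatives were the likelihood ratio and exact tests, DESeq2 1.42.0, other size factors, other filters and leaving out each library. Chosen after seeing the data were scaling to the summed cytosolic members, adding the counts of copies, leaving out members with many shared words and a term for libraries with over 1000 muscle counts. A copy had at least 25% of its own 50-base words in the parent gene and at most 2 times its length. No test was made over a list.

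Coordinates are those of the deposited table. A count of 3, taken as the limit of a count of 0, was 0.176 to 0.269 CPM and covers counting error only. Genes named in the text were drawn from the 3 highest and 3 lowest fold changes of each subunit, called members and the role lists. They were also drawn from subunits of other names, the 3 highest levels per length and, in other lists, called genes (at most 4). Not every gene that these rules pick is named. The others named (Rpl22l1, Rps15a, Rpsa, Mrpl28, the copies, Tufm, Larp1, Eef1a1, Eef1a2, Eef2, Eif4b, Eif4e, the muscle genes and the start windows of Rpl15, Rpl35 and Rps10) were chosen after their values were seen. The members and lists were chosen with earlier results of these data known.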

Additional observations from a re-analysis of the deposited data

How the results depend on the processing

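No paired analysis was possible because no label ties a WT library to a numbered saline sample. For cytosolic genes, the count at an adjusted p under 0.05 was 2, and it was 6 with library size only, 1 scaled to the summed cytosolic members, 1 with the copies added, 1 with the muscle term and between 0 and 2 when 1 library was left out. The count at the study's threshold was 12, and it was 41 with library size only, 4 scaled to the cytosolic members and between 4 and 14 when 1 library was left out. For mitochondrial genes the 0 calls (10 genes at an unadjusted p under 0.05) became 2 with the likelihood ratio test, 1 with the exact test, 2 with DESeq2, 1 with upper-quartile factors, 3 with library size only, 1 with at least 10 counts in every library and 2 at an adjusted p under 0.1, and the 7 at the study's threshold became between 3 and 9 when 1 library was left out. The medians moved to 0.63 (cytosolic) and 0.28 (mitochondrial) with library size only, and the mitochondrial one to −0.29 scaled to the cytosolic members. The cause of these moves was not tested. The within-library ratio of cytosolic to mitochondrial counts kept its direction in all alternatives run, but most of these could not reverse it. It uses no scaling and no test, and since the groups did not overlap, leaving out 1 library cannot turn it around. Adding the copies, or leaving out members with many shared words, could have changed it. In each of these it was still higher in both APAP libraries than in any saline library. Mrps18b was called under the likelihood ratio test, the exact test, DESeq2, upper-quartile factors, library size only and the filter of 10 counts. Rpl22 was called by DESeq2 and without WT3. Rpl3, which was not called, changed sign without APAP replicate 1, and no called value changed sign in any alternative run. The estimated variation between libraries of a group was 33.3% (coefficient of variation), with 2 against 3 libraries.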

Other observations

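Both Rpl3l and Eef1a2, the elongation factor paralog of muscle and neurons, were at 0 counts in APAP replicate 1 and WT1 and above 0 in the other 3 libraries, at 2.53, 4.19 and 7.22 CPM for Rpl3l and at 11.1, 14.6 and 27.5 CPM for Eef1a2 in APAP replicate 3, WT2 and WT3. The muscle genes Acta1 (0, 2068, 0, 3029 and 4938 counts in APAP replicates 1 and 3 and WT1 to WT3), Myh1 (6, 1838, 0, 2499 and 7814) and Ckm (1, 986, 0, 1422 and 2596) were high in the same 3 libraries. These genes were chosen after their values were seen.

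Rpl3 itself was at 115 CPM in APAP replicate 1 and at 54.9 CPM in APAP replicate 3, beside 75.2, 60.0 and 53.2 CPM in saline, so that its log2 fold change of 0.43 ± 0.34 became −0.19 without APAP replicate 1.

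Eif4e, the cap-binding protein that Eif4ebp1 restrains, was at 86.3 and 75.5 CPM in APAP and 40.7, 12.0 and 29.3 CPM in saline (log2 fold change 1.57 ± 0.45, adjusted p = 0.0872 from edgeR). Eif4b was at 202 and 226 CPM against 423, 399 and 409 CPM (−0.94 ± 0.23, adjusted p = 0.0570).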
